A study of Mus musculus with 2 samples.

Results

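Krüppel-like factors are DNA-binding proteins whose zinc fingers recognise GC-rich and CACCC sequences, and 7 of their genes, Klf2, Klf3, Klf4, Klf6, Klf7, Klf10 and Klf13, were followed here across the cell types of mouse bone marrow, out of 31053 genes counted. The members were chosen from measured values of these same libraries, so their levels and their ratios between the groups are given as descriptions, without a test. Single-cell RNA libraries came from aged C57BL/6J mice that had been given gut microbiota by fecal transfer. In the library called FMT_young the aged recipients received microbiota of young donors, and in the library called FMT_aged they received microbiota of aged donors. All recipients in both groups were aged, and no recipient group without a transfer is used here. Each group was 1 library, prepared with a droplet kit that counts molecules at the 3′ end, from flow-sorted whole marrow, lineage-negative (Lin-) and lineage-negative Kit-positive (Lin- cKit+) cells mixed in parts of 1, 1 and 4. The number of animals behind each library is not given, so group and library cannot be told apart, and every interval below covers counting error only.

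Members of this family read many of the same GC-rich elements but differ in partners and in when they are made. Klf2 is known for holding T and B lymphocytes in a quiescent, circulating state and lies downstream of the MEK5, ERK5 and MEF2 pathway. Klf4 is a regulator of monocyte differentiation and one of the reprogramming factors. Klf6 is made quickly after many stimuli and acts in macrophages. Klf3 is a repressor that recruits CtBP, Klf10 is an early target of TGF-beta that recruits the Sin3a corepressor, Klf13 drives chemokine expression in activated T cells and also binds Sin3a, and Klf7 has been studied mainly in neurons and lymphoid cells.

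In GENCODE vM21 on GRCm38, the assembly called mm10 in the submitters' processing notes, Klf2 lies at chr8:72319033-72321656 on the plus strand and its annotated transcript has 3 exons. Klf4 is at chr4:55527143-55532466 (minus strand), Klf6 at chr13:5861482-5870394 (plus), Klf3 at chr5:64803388-64832901 (plus), Klf7 at chr1:64029447-64122282 (minus), Klf10 at chr15:38291463-38300706 (minus) and Klf13 at chr7:63886351-63938915 (minus). Counted genes on the opposite strand overlap Klf7 (2 genes) and Klf13 (1 gene), and none overlaps the other 5.

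Promoter sequence was read from RefSeq (GRCm38.p6) for 6 of the 7 members. The promoters of Klf2, Klf6 and Klf4, the members with the largest ratios between the libraries, are shown with that of Klf13, whose ratios lay near 0. Each runs 5′ to 3′ on the gene's own strand over the 250 bases before the RefSeq start, ending earlier where the GENCODE gene begins. Capitals mark matches, on either strand, to the GC box GGGCGG, to the boxes named by their letters CACCC and, for nuclear factor Y, CCAAT, to TGACGT, which is the core of a cAMP response element, or to a MEF2 site. The windows are chr8:72318812-72319032 (plus strand) for Klf2, chr13:5861239-5861481 (plus) for Klf6, chr4:55532476-55532725 (minus) for Klf4 and chr7:63938916-63939165 (minus) for Klf13.
Klf2: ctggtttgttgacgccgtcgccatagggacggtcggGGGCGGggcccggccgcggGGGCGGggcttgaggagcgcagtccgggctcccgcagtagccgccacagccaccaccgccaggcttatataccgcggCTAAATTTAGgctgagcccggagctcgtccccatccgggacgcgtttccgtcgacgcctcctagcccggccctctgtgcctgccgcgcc
Klf6: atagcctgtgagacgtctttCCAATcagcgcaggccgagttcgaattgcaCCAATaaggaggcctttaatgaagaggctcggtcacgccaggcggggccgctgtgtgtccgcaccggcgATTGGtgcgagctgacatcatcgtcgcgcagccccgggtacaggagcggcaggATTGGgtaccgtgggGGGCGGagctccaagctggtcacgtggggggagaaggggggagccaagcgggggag
Klf4: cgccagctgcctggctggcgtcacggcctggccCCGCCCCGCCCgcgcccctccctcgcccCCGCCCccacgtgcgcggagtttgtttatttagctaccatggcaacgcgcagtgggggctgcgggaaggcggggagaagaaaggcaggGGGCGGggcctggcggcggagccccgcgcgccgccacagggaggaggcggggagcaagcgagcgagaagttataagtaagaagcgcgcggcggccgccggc
Klf13: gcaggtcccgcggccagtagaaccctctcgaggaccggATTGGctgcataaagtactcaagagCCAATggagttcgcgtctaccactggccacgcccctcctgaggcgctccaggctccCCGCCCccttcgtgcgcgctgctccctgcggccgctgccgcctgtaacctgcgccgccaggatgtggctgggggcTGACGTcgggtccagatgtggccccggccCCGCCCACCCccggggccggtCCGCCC

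The Klf2 window held 1 match to the MEF2 site, 118 to 109 bases before the RefSeq start, which 2.89% of 32536 RefSeq windows of 250 bases hold. It also held 2 GC boxes, against 33.0% of windows with at least 1, and 1 CACCC box in the stretch that is not printed (52.1% of windows). Klf6 held 4 CCAAT boxes and 1 GC box, where 33.8% of windows hold a CCAAT box. Klf4 held 4 GC boxes, of which 2 share a base, and no CCAAT box. Klf13 held 3 GC boxes, 2 CCAAT boxes, 1 CACCC box that overlaps a GC box, and 1 TGACGT core, a sequence in 6.50% of windows. Of the 6 members with a sequence, all held a GC box, and 0 held an AP-1 site (TGANTCA, 6.73% of windows), a TATA box (TATAAA, 12.3%), a CArG box (1.48%) or a forkhead site (GTAAACA, 3.17%). Among these windows, all of that of Klf7 and 133 bases of that of Klf3 lie inside the GENCODE gene. The windows of the 4 shown were 64.8 to 74.0% G and C, against a median of 52.4% over all windows. These matches describe letters, not binding.

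The files held 214982156 and 207642851 molecule counts (unique molecular identifiers, UMIs) in FMT_young and FMT_aged, and the members took 297278 and 127494 of them. After cell calling 10793 and 10320 cells remained, with median depths of 11044 and 11615.5 UMIs. Between the libraries 32 cell barcodes were shared. More barcodes with at least 1000 UMIs were over the mitochondrial limit of 10% in FMT_aged (18.7%) than in FMT_young (13.9%). Clustering gave 30 clusters, of which 25 could be named from marker genes as "-like" classes, and 14 classes had at least 50 cells in each library, with 54 to 1577 cells per class and library. The unnamed clusters held 18.1% of FMT_young and 8.67% of FMT_aged cells. The class called stem-like below, in full stem and multipotent progenitor-like, held 894 and 1144 cells in 2 clusters, one led by Hlf, Meis1 and Mecom and the other by Adgrg1, Cpa3 and Cd34. Its 12 stem and progenitor markers summed to 2595 and 2509.6 CPM, the T cell list to 3.28 and 3.48, the macrophage list to 9.31 and 9.01 and the neutrophil list to 453 and 255, the last being the higher in FMT_young; its part in the ratios was not tested. Of the 2 stem-like clusters, the one led by Hlf raised 11 and the other 6 of the 12 stem and progenitor markers. The Hlf-led cluster also raised 4 of 6 lymphoid progenitor markers. Names rest on transcripts and not on a sort gate. Levels below are CPM, the UMIs of a gene in 1000000 UMIs of its class in a library, in the order FMT_young then FMT_aged, and a ratio is the log2 of the first over the second.

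Klf2, Klf6 and Klf4 were higher in FMT_young in all 14 classes, whereas Klf3, Klf7, Klf10 and Klf13 were higher in 7, 8, 10 and 8 of them. These counts take in classes with under 100 UMIs of a member, and Klf4 had at least 100 UMIs in 12 of the 14. Of 98 combinations of a member and a class, 90 had at least 100 UMIs in both libraries together. Among these, 28 were at least 2-fold higher in FMT_young and 0 were at least 2-fold higher in FMT_aged. Of all genes with at least 100 UMIs, between 0.14% (granulocyte-monocyte progenitor-like) and 3.96% (mature B-like) passed 2-fold towards FMT_aged, with 2.67% in plasma-like cells. The count of 0 is therefore not read as a trait of the members. Of the 28, 13 were of Klf2, 9 of Klf6, 5 of Klf4 and 1 of Klf10. Nearest to the 2-fold line, Klf4 in monocyte progenitor-like cells (1.00) was just inside and Klf2 in neutrophil-like cells (0.99) just outside. Over all 98, those under 100 UMIs included, the counting interval lay above 0 in 51 and below 0 in 5. Of the 51, 14 were of Klf2, 14 of Klf6 and 12 of Klf4. The share of all genes with such intervals was not computed, so these counts are not read as a trait of the members.

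The share of all genes with at least 100 UMIs that passed 2-fold towards FMT_young gives the background for these counts, which are out of 4 to 7 members measured in a class. Klf2, Klf6 and Klf4 were the 3 members past 2-fold in the stem-like class, where 1.02% of genes were, and likewise in granulocyte-monocyte progenitor-like (1.09%), monocyte progenitor-like (1.08%), basophil or mast-like (1.33%) and mature B-like cells (1.87%). Klf2 and Klf6 passed it in lymphoid progenitor-like (0.659%), monocyte-like (1.14%), plasmacytoid dendritic-like (2.08%) and T-like cells (1.54%). In plasma-like cells the 2 were Klf2 and Klf10 (1.59%). Klf2 alone passed in conventional dendritic-like (1.3%), NK-like (0.687%) and neutrophil progenitor-like cells (0.929%), and 0 of 6 members passed in neutrophil-like cells (0.768%). Since members were chosen with this contrast known, nothing is read from the distance to the background.

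**Figure D1:**
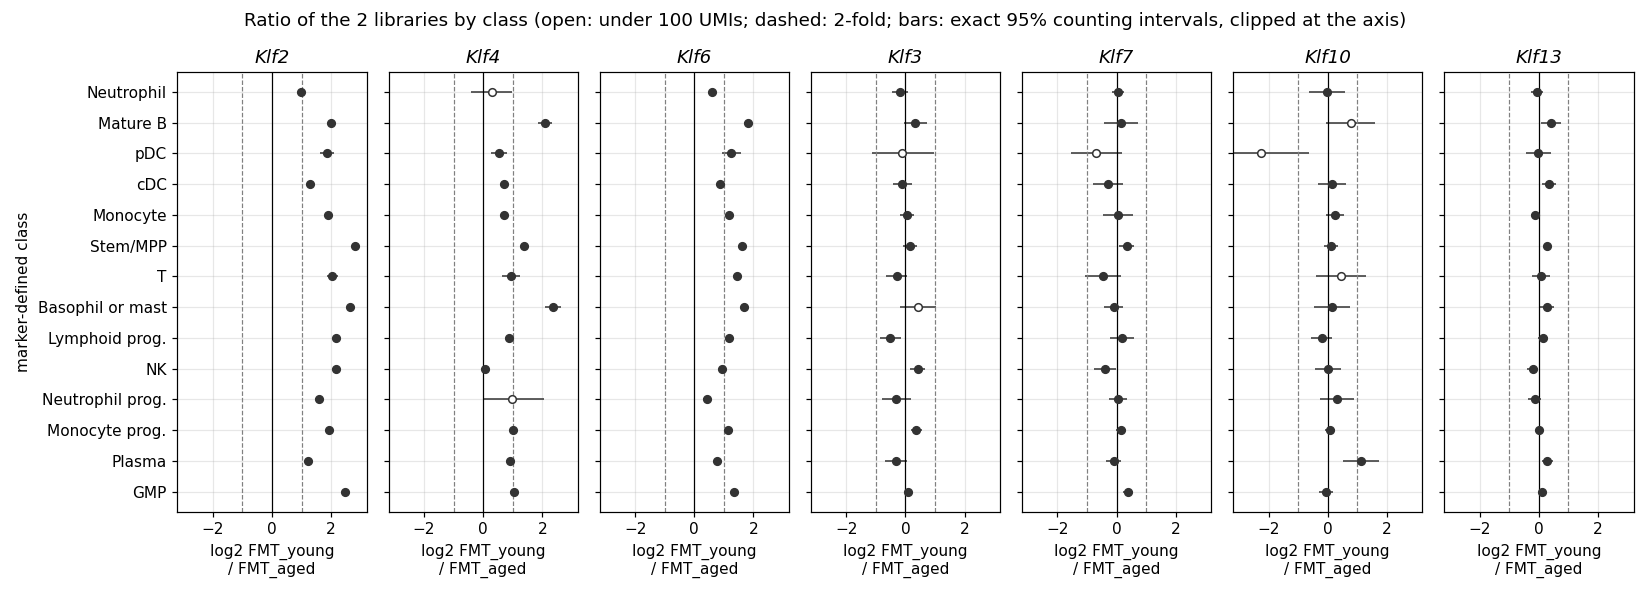
Log2 ratio of FMT_young over FMT_aged (horizontal axis) for each member in 14 classes (rows, ordered by the mean level of Klf2). Points are ratios of summed UMIs, bars exact 95% counting intervals, dashed lines 2-fold, and open points have under 100 UMIs. Rows shorten plasmacytoid and conventional dendritic to pDC and cDC, granulocyte-monocyte progenitor to GMP and multipotent progenitor to MPP, and Klf2, Klf4 and Klf6 lie right of 0 in every row, and the other 4 members scatter around 0.

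Klf2 had its widest gap in the stem-like class, at 1280.2 and 185 CPM (12507 and 2448 UMIs), a ratio of 2.79 (2.73 to 2.85). In 4 of 13 alternatives another class had the higher ratio, and in 3 of these, cells thinned to equal depth, means over cells and separate clustering, it was the basophil or mast-like class. Basophil or mast-like cells followed with 996 and 158 CPM (2.65) and granulocyte-monocyte progenitor-like cells with 309.8 and 56.1 (2.46). A UMI of Kit, the stem cell factor receptor that marks progenitors, was seen in 60.3% and 24.8% of the cells of the 2 basophil or mast-like clusters.

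In the lymphoid classes Klf2 stood at 2161 and 543 CPM in mature B-like, 1019.9 and 248 in T-like and 804 and 179 in NK-like cells, with ratios of 1.99, 2.04 and 2.17. Lymphoid progenitor-like cells had 828 and 185 (2.16). The mature B-like class pooled 2 clusters with Klf2 ratios of 2.06 and 1.84. The first (195 and 199 cells) was led by Ebf1, Vpreb3 and Vpreb1 and raised 7 of 9 pro-B and pre-B markers. The second (125 and 291 cells) raised 5 of these 9, so the class levels need not be those of mature B cells. In the NK-like cluster 49.1% of cells had a UMI of Kit, so its level need not be that of mature NK cells.

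Among myeloid classes, monocyte-like cells had 1199 and 327 CPM (1.88), their progenitors 625 and 165 (1.92), and neutrophil progenitor-like cells 671 and 223 (1.59). Dendritic classes had 1654 and 459 (plasmacytoid, 1.85) and 1193 and 489 (conventional, 1.29). A UMI of Kit was seen in 57.8% of conventional dendritic-like cells, so the levels of this class need not be those of mature dendritic cells. The smallest ratios were in plasma-like (543 and 236, 1.20) and neutrophil-like cells (1972 and 996, 0.99), and the median over classes was 1.96.

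By the mean of both libraries, Klf2 was highest in neutrophil-like, mature B-like and plasmacytoid dendritic-like cells and lowest in granulocyte-monocyte progenitor-like cells, an 8.11-fold range. None of the 13 neighbouring pairs in this order was separated, since the ranges of their 2 libraries overlapped. These ranges are the gaps between the groups, so wide ratios favour overlap. The count does not tell whether classes differ within a library. The 2 neutrophil-like clusters differed: the one led by Retnlg and Il1b had 2581 and 1618 CPM (0.67), and the one led by stefin genes and Ltf had 1800.2 and 751 (1.26).

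Klf6 was highest in T-like cells, at 1346 and 493 CPM (1.45), followed by neutrophil-like (1021 and 669, 0.61), basophil or mast-like (1210.1 and 378, 1.68) and stem-like cells (1115 and 369, 1.60, interval 1.55 to 1.65, 10890 and 4872 UMIs). The stem-like value pools 2 unlike clusters. The one led by Hlf had 1828 and 672 CPM, above T-like cells in each library, and the Cd34 and Cpa3 cluster 536 and 165. The widest gap of Klf6 was in mature B-like cells, at 1027 and 293 CPM (1.81), and the narrowest in neutrophil progenitor-like cells, at 388 and 286 (0.44). Within the mature B-like class the ratio was 2.11 in the cluster led by Ebf1 and Vpreb3 and 1.63 in the other. Granulocyte-monocyte progenitor-like cells were lowest in both libraries (228 and 90.7, 1.33). As for Klf2, 0 of 13 neighbouring classes were separated, and the median ratio was 1.18.

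In the remaining classes Klf6 had 789 and 417 CPM in NK-like (0.92), 804 and 353 in monocyte-like (1.19) and 689 and 373 in conventional dendritic-like cells (0.88). Plasmacytoid dendritic-like cells had 709 and 298 (1.25), lymphoid progenitor-like 535 and 239 (1.16), plasma-like 342 and 203 (0.75) and monocyte progenitor-like 364 and 165 (1.14). In every class the FMT_young level was the higher one, by between 1.36-fold and 3.51-fold.

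Klf4 was the most unevenly spread member. Monocyte-like cells had 1049 and 649.9 CPM, and neutrophil progenitor-like cells 10.3 and 5.17 (32 and 13 UMIs), a 110.2-fold range of the class means. The order was alike in the libraries, with a Spearman correlation of 0.916 between them over 14 classes that share depth and free RNA within a library. The step from monocyte-like cells down to the dendritic classes was separated, as were those from conventional dendritic-like to NK-like cells and from basophil or mast-like cells down through granulocyte-monocyte progenitor-like, neutrophil-like and neutrophil progenitor-like cells. The other 8 of 13 neighbours overlapped. The call of separated leaves out counting error, and UMIs were few in both neutrophil classes. The order at the foot, into and between these classes, is therefore not settled.

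Plasmacytoid and conventional dendritic-like cells had 616 and 428 (0.53) and 595 and 362 CPM (0.71) of Klf4. Monocyte progenitor-like cells had 261 and 130.4 (1.00), below monocyte-like cells in each library. Stem-like cells had 362 and 139 (1.38, interval 1.30 to 1.46). Monocyte-like cells, the highest of the 14 classes in each library, had a ratio of 0.69. With a mitochondrial limit of 5% or separate clustering of the libraries, a class named macrophage-like also had enough cells to be compared and was highest. In the main clustering the macrophage-like cells had 480.3 and 540.1 CPM, below monocyte-like cells in each library. The classes of that name under these alternatives therefore need not hold the same cells.

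The widest gaps of Klf4 were in basophil or mast-like (194 and 37.7 CPM, 2.36, interval 2.10 to 2.63) and mature B-like cells (394 and 92.9, 2.08, 1.85 to 2.32). In NK-like cells the levels were 294 and 279 CPM, a ratio of 0.08 whose interval (-0.06 to 0.21) includes 0. T-like (200.4 and 105, 0.94), lymphoid progenitor-like (154 and 83.3, 0.89), plasma-like (292 and 155, 0.91) and granulocyte-monocyte progenitor-like cells (29.3 and 14.3, 1.04) lay between. In neutrophil-like cells 50 and 30 UMIs gave 13.4 and 11.0 CPM, too few for a direction (0.28, -0.40 to 0.99).

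**Figure D2:**
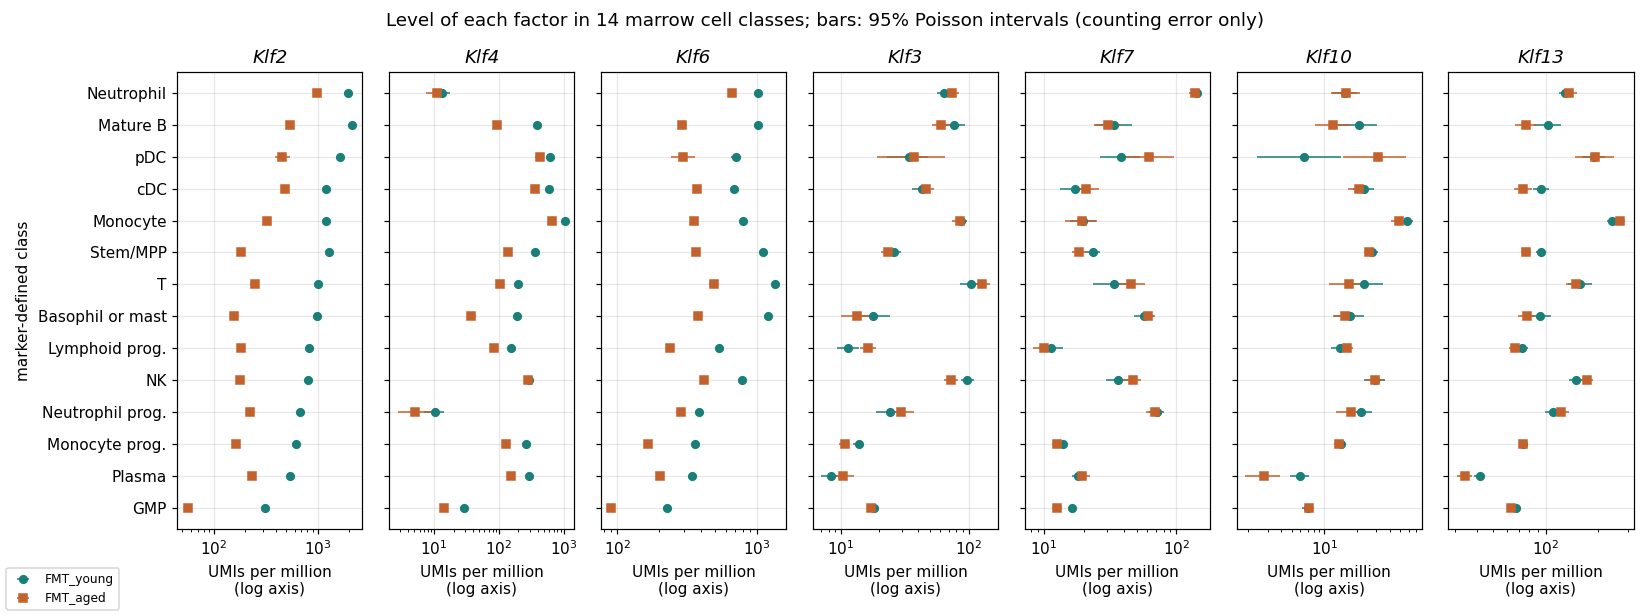
Level of each member (CPM, log axis) in 14 classes (rows, ordered by the mean level of Klf2), with circles for FMT_young and squares for FMT_aged and bars for exact 95% Poisson intervals. Circles and squares are apart for Klf2 and Klf6 in every row, and Klf4 is lowest in the neutrophil classes and granulocyte-monocyte progenitor-like cells.

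Klf3, the CtBP-recruiting repressor, was highest in T-like cells (103 and 127 CPM), with monocyte-like (87.7 and 84.9) and NK-like cells (97.6 and 73.3) next and not separated from each other. Stem-like cells had 26.0 and 23.2 and plasma-like cells, the lowest, 8.33 and 10.5. Its median ratio was -0.03, and 12 of 14 classes had at least 100 UMIs. The interval lay above 0 in NK-like (0.41) and monocyte progenitor-like cells (0.36) and below 0 in lymphoid progenitor-like cells (-0.51).

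Klf7 was led by the neutrophil classes. Neutrophil-like cells had 142 and 137 CPM and neutrophil progenitor-like cells 70.8 and 68.8, both separated from the classes under them. Lymphoid progenitor-like cells were lowest (11.3 and 10.0). The 2 classes at the head of this order were at the foot of that of Klf4. Over the 14 classes the correlation of log2(CPM + 10) between Klf4 and Klf7 was -0.542 in FMT_young and -0.347 in FMT_aged. Its median ratio was 0.05, with intervals above 0 in stem-like (0.34) and granulocyte-monocyte progenitor-like cells (0.38) and below 0 in NK-like cells (-0.38).

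Klf10, the TGF-beta early gene, was highest in monocyte-like cells (58.0 and 48.8 CPM), followed by NK-like (29.2 and 29.0) and stem-like cells (27.7 and 25.8). These steps were separated by the ranges of the libraries, a call that leaves out counting error. NK-like cells had 83 and 102 UMIs, so their order with stem-like cells is not settled. From conventional dendritic-like down to monocyte progenitor-like cells 0 of 8 neighbouring pairs were separated, and 11 of 14 classes had at least 100 UMIs. Plasma-like cells had 5.96 and 2.76 CPM from 103 and 30 UMIs, a ratio of 1.11 (0.51 to 1.75). In plasmacytoid dendritic-like cells 6 and 10 UMIs gave a ratio of -2.24, in the other direction and under the minimum of 100 UMIs. The median ratio was 0.12.

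Klf13 was highest in monocyte-like cells (242 and 268 CPM), then plasmacytoid dendritic-like (189 and 192), NK-like (149.7 and 174), T-like (158 and 150.3) and neutrophil-like cells (130.3 and 137). Plasma-like cells were lowest (41.8 and 34.2). All 14 classes had at least 100 UMIs, and 7 of 13 neighbours were separated, the most of any member, a count that narrow gaps between the libraries favour. Its ratios ran from -0.21 in NK-like cells, beside -0.15 in monocyte-like cells, to 0.43 in mature B-like cells, with a median of 0.09 and 94.4 and 77.2 CPM (0.29) in stem-like cells. The order of classes agreed between the libraries with a Spearman correlation of 0.960 for Klf13, 0.960 for Klf3 and 0.947 for Klf7, against 0.798 for Klf6, 0.758 for Klf2 and 0.622 for Klf10.

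The plasma-like class differed in makeup between the libraries. Of their 3 clusters, one held 910 FMT_young and 4 FMT_aged cells, another 6 and 322, and only the IgA-rich cluster had many of both (227 and 388). Within the latter the ratios were 1.28 for Klf2, 0.92 for Klf6, 0.45 for Klf4 and 0.43 for Klf10, the last from 17 and 22 UMIs.

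Shares of cells were compared after each cell was thinned to 2000 UMIs, which left out 10 of 894 and 5 of 1144 stem-like cells. A UMI of Klf2 was then seen in 77.8% of FMT_young (74.9 to 80.5, exact binomial interval) and 31.1% of FMT_aged stem-like cells (28.4 to 33.9). Without thinning the shares were 94.9% and 63.2%, at median depths of 8870 and 9047.5 UMIs. Among thinned stem-like cells the median was 2 UMIs of Klf2 in FMT_young and 0 in FMT_aged, and the highest cell had 25 and 10.

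For Klf6 the thinned shares in stem-like cells were 76.4% and 49.3%, and for Klf4 43.4% and 21.2% (unthinned 95.1% and 79.8%, 72.8% and 45.5%). The lowest class for Klf2 and Klf6, granulocyte-monocyte progenitor-like cells, had 36.7% and 9.64% of cells with Klf2 and 33.1% and 15% with Klf6, at median depths of 26448 and 28855. For Klf4, neutrophil-like cells had 1.89% and 1.13%, at median depths of 4378.5 and 3820.5, and neutrophil progenitor-like cells 2.66% and 0.556%, at median depths of 15212 and 12552. How much of a share comes from free RNA was not tested. The other 4 members were seen at like shares in both libraries in stem-like cells, for example Klf13 in 18.4% and 16.1% and Klf10 in 6.11% and 6.15%.

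Single stem-like cells held on average 2.32 of the 7 members in FMT_young and 1.33 in FMT_aged at equal depth. At least 3 members were seen in 46.9% and 16.2% of these cells, and none in 7.69% and 28.8%. Klf2 and Klf6 were seen together in 65.0% of FMT_young cells, where the product of their shares is 59.4%, and in 19.9% of FMT_aged cells, where it is 15.3%. Across thinned cells their UMIs had a Spearman correlation of 0.453 and 0.228. The class pools 2 clusters that differ in both genes. In FMT_young the Hlf-led cluster had 2018 CPM of Klf2 and 1828 of Klf6, and the other 682 and 536. Pooling unlike clusters can raise joint detection and correlation, and its part in these values was not tested. Over classes the mean number seen was between 0.987 and 3.09 in FMT_young and between 0.449 and 2.36 in FMT_aged, with granulocyte-monocyte progenitor-like cells lowest and monocyte-like cells highest in each.

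**Figure D3:**
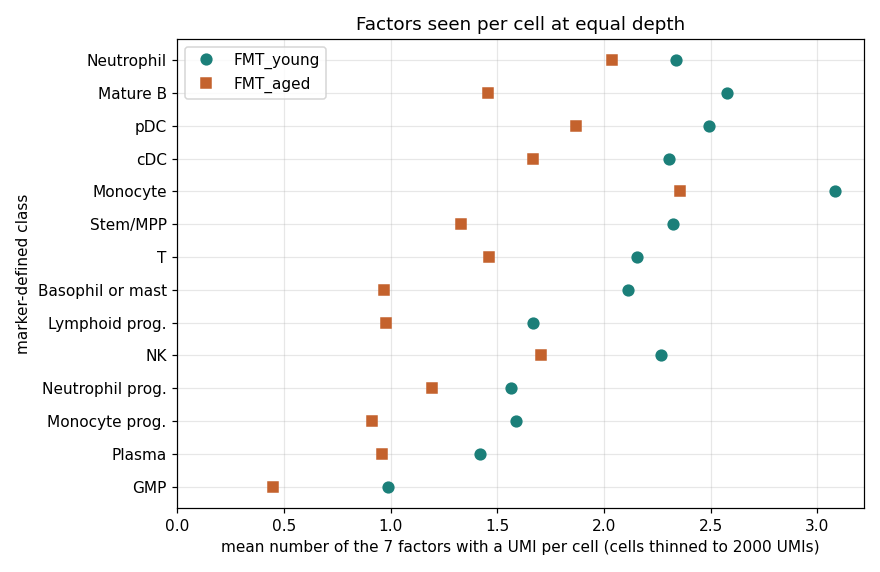
Mean number of the 7 members with at least 1 UMI per cell (horizontal axis) after thinning each cell to 2000 UMIs, by class (rows) and library (circles FMT_young, squares FMT_aged). The circle lies right of the square in each of the 14 classes, and monocyte-like cells lie farthest right in both libraries.

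Within the stem-like class the cells were split by cluster, by tercile of depth and by tercile of mitochondrial share. Over these 8 groups the ratio of Klf2 ran from 2.64 to 2.90, that of Klf6 from 1.40 to 1.76 and that of Klf4 from 1.16 to 1.62. Levels differed more than ratios: the Hlf-led cluster had 2018 and 321 CPM of Klf2 and the Cd34 and Cpa3 cluster 682 and 94.0, and Klf4 stood at 659 and 288 against 121 and 39.4. Klf13 had a ratio of 0.87 in the shallowest tercile and 0.03 in the deepest.

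The size of the stem-like ratios did depend on which cells were grouped. When each library was clustered and named on its own, an alternative added after seeing the data, the class held 1058 and 831 cells. Klf2 then had 1145 and 268 CPM (2.10), Klf6 971 and 568 (0.77) and Klf4 307 and 229 (0.42). Klf10 had 23.4 and 34.9 (-0.58). So the direction held for Klf2, Klf6 and Klf4 in stem-like cells, while the 2-fold line was passed by Klf2 alone. Over the classes named this way Klf2 and Klf6 were higher in FMT_young in all 14 and Klf4 in 13.

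Free RNA differed between the libraries in the same direction. In barcodes with under 100 UMIs, which hold such RNA, Klf2 stood at 677 and 226 CPM (1.58), Klf6 at 417 and 224 (0.90) and Klf4 at 242 and 131 (0.89). The other 4 members had ratios of -0.14 to 0.21 there. For Klf2, stem-like cells lay above the free RNA in FMT_young (1280.2 CPM) and below it in FMT_aged (185), and granulocyte-monocyte progenitor-like cells lay below it in both libraries, while neutrophil-like cells lay far below it in Klf4. With the free RNA profile subtracted at 10% of each class total, the stem-like ratio of Klf2 was 2.90 and that of Klf6 1.63.

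Genes made within minutes of a stimulus or of tissue handling, called immediate early genes, were higher in FMT_young in the same classes. Of a list of 25 such genes, 24 had at least 100 UMIs in stem-like cells, of which 23 were higher in FMT_young, 10 of them at least 2-fold, and the median ratio was 0.88 against -0.09 over all genes with at least 100 UMIs. The list summed to 17557 and 9057 CPM. Nr4a1, a nuclear receptor, had 174 and 28.9 CPM (2.59) and the stress factor Atf3 92.7 and 26.2 (1.82), while Nfkbia, the NF-kB inhibitor, had 148 and 164 (-0.15) and the heat shock gene Hspa1a 497 and 401 (0.31). Over the 14 classes the list median ran from 0.38 in neutrophil-like to 1.30 in mature B-like cells, and 0 of its genes were 2-fold higher in FMT_aged in any class. By class, between 0.14% and 3.96% of all genes with at least 100 UMIs were. Klf2 exceeded the list median in all 14 classes, and Klf6 in 13, all but neutrophil progenitor-like cells. The part of handling, of free RNA and of the mitochondrial share in the members' ratios was not tested.

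**Figure D4:**
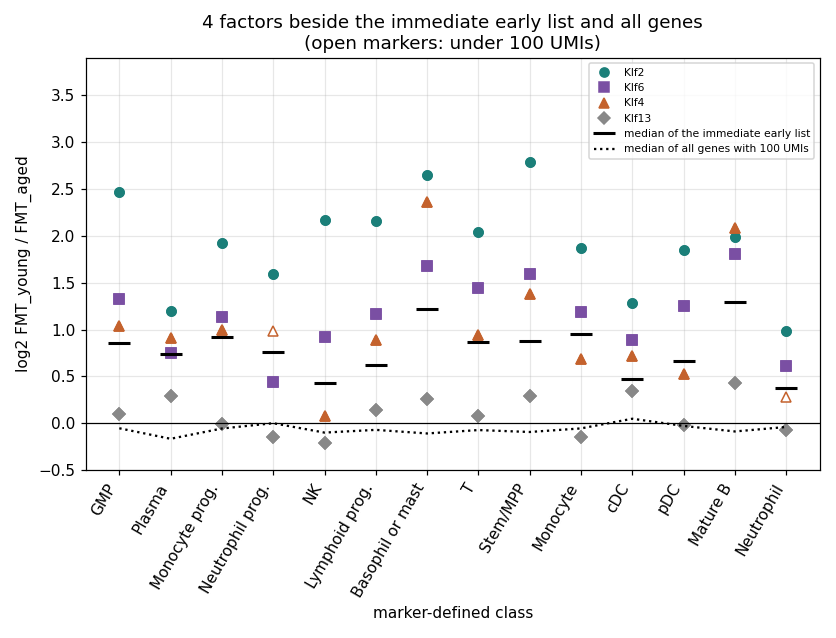
Log2 ratio of FMT_young over FMT_aged (vertical axis) by class for Klf2, Klf6, Klf4 and Klf13, with bars for the median of the 25 immediate early genes and a dotted line for the median of all genes with at least 100 UMIs. Open markers have under 100 UMIs. Klf2 lies above the bar in each of the 14 classes, and the dotted line runs from -0.17 to 0.05.

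Genes around the family were taken from lists, and are described in the stem-like class. Of 10 other Krüppel-like genes only 3 had at least 100 UMIs there, and 0 passed 2-fold: Klf9, a glucocorticoid-responsive member, had 84.0 and 67.9 CPM (0.31, 0.17 to 0.45), Klf11 12.7 and 13.2 (-0.05) and Klf16 16.4 and 16.4 (-0.00). Over all classes Klf9 was highest in stem-like cells, Klf5 in the neutrophil classes (72.1 and 63.6 CPM in the progenitors) and the erythroid factor Klf1 in basophil or mast-like cells (24.6 and 16.4). Of 9 SP genes, which encode the sister factors that bind GC boxes, 4 were measured, and their ratios were -0.14 for Sp3, -0.13 for Sp4, -0.03 for Sp1 and -0.00 for Sp2, all with intervals that include 0.

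All 12 genes for cofactors and ubiquitin ligases were measured, and 0 passed 2-fold. The deacetylase genes Hdac1 (79.3 and 96.9 CPM, -0.29) and Hdac2 (70.4 and 85.2, -0.27) had the lowest ratios, and Wwp1 (0.07), a ubiquitin ligase, and the acetyltransferase gene Ep300 (0.03) the highest. Upstream of Klf2, 6 of 8 regulators were higher in FMT_young and 0 passed 2-fold. Of the MEF2 factor genes, 2 had the widest gaps, with Mef2c at 348 and 239.9 CPM (0.54, 0.47 to 0.61) and Mef2d at 72.2 and 54.6 (0.40, 0.25 to 0.56). The third, Mef2a, had 50.7 and 45.0 (0.17) and, like the kinase genes above them, Map2k5 (MEK5, -0.19) and Mapk7 (ERK5, -0.18), an interval that includes 0.

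Of 8 lymphocyte trafficking genes linked to Klf2, 6 were measured in stem-like cells, 3 were higher in each library, and 0 passed 2-fold. S1pr1, the egress receptor activated by Klf2 in T cells, had 8.91 and 5.07 CPM (0.81, 0.34 to 1.29), and Cd69, which opposes that receptor and is itself an early activation gene, 271 and 139.6 (0.96). S1pr4 (-0.33) and Itgb7 (-0.06) had the lowest ratios. Of the 8 TGF-beta pathway genes linked to Klf10, 2 passed 2-fold towards FMT_young, both of them feedback inhibitors: Skil with 92.2 and 28.5 CPM (1.70) and Smad7 with 156 and 73.8 (1.08). Smad3, the signal transducer, had 17.6 and 25.4 (-0.53, -0.80 to -0.26) and Smad4 -0.05, beside a ratio of 0.10 for Klf10 itself.

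The genes whose levels were most like each member's were found by Pearson correlation of log2(CPM + 10) over 28 points, the 14 classes in 2 libraries, among 5001 genes. The points share library, depth and free RNA, so these values are descriptions. Klf2 was most like Tiparp (r = 0.877, rho = 0.904), Klf6 (r = 0.847, rho = 0.801) and Btg2 (r = 0.804, rho = 0.766). Klf6 was most like Tob1 (r = 0.850, rho = 0.877), Klf2 and Kdm6b (r = 0.811, rho = 0.820), and Klf4 like Ppp1r15a (r = 0.854, rho = 0.754), Tmem109 (r = 0.842, rho = 0.782) and Mndal (r = 0.826, rho = 0.662). Of these, Btg2 and Ppp1r15a belong to the immediate early list.

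The members with ratios near 0 had other neighbours. Klf3 was most like Stk10 (r = 0.925, rho = 0.909), Akna (r = 0.922, rho = 0.897) and Wipf1 (r = 0.919, rho = 0.910), and Klf13 like Rap2c (r = 0.878, rho = 0.882), Stat6 (r = 0.872, rho = 0.837) and Usp25 (r = 0.868, rho = 0.840). Klf7 was most like Grina (r = 0.870, rho = 0.865), Slc2a3 (r = 0.858, rho = 0.761) and Mxd1 (r = 0.849, rho = 0.822), and Klf10 like Bin2 (r = 0.850, rho = 0.790), Rela (r = 0.756, rho = 0.770) and Ctdsp2 (r = 0.750, rho = 0.630). Between members, Klf2 and Klf6 had a correlation over 14 classes of 0.80 in FMT_young and 0.690 in FMT_aged, and Klf3 and Klf13 one of 0.789 and 0.740. The pair of Klf10 and Klf13 had 0.605 and 0.838, the closest pair in FMT_aged.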

How the data were processed

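The authors deposited gene-by-barcode count tables of molecules (UMIs) for every barcode with their gene and barcode lists, made with Cell Ranger 3.1.0 per the file headers, on mm10 per the submitters' processing notes. Barcodes with at least 1000 UMIs, 500 genes and at most 10% mitochondrial UMIs were kept. Doublets were scored against simulated doublets per library (2 per cell) and the top 0.8% per 1000 cells removed (9.55% of FMT_young and 9.08% of FMT_aged cells). Both libraries were clustered together (2000 variable genes, 40 components, 20 neighbours, Leiden resolution 1). A cluster took a name where at least 3 of that type's markers were in at least 10% of its cells and 1.5-fold above the rest, with a marker among its 10 leading genes; ties needed 2, and a UMI of Kit in at least 20% of cells set progenitors apart. These naming thresholds were set after the clusters were seen. UMIs were summed per class and library and scaled to 1000000 (CPM), a count of 0 being replaced by 0.5 in ratios. Intervals are exact at 95% (Poisson for levels, conditional binomial for ratios). The 2-fold line was applied only to genes with at least 100 UMIs. Counts of classes higher in FMT_young, the members' median ratios and their interval counts take in all combinations. With 1 library per group there was no test between groups and no p-value. The members and gene lists were chosen with earlier results of these data known. Named genes are all members, the 2 largest and 2 smallest ratios of each list in the stem-like class, and the 3 genes most like each member among those with at least 50 CPM in a class of both libraries. Neighbouring classes were called separated where the ranges of the 2 libraries did not overlap. The 2 libraries are the 2 groups, so this range is not a spread of replicates. Counting error does not enter the call. Because counts are of 3' ends, a level is compared between classes for 1 gene and not between genes. On simulated data of 9910 genes with 200 changed, 95.9% of the intervals for the stem-like class held the true ratio. The simulated counts had counting error only, so this checks the computation and not the spread between cells, animals or libraries. Software was python 3.11.15, numpy 2.4.6, scipy 1.17.1, scikit-learn 1.9.0, leidenalg 0.10.2, igraph 0.11.9, matplotlib 3.10.9. Alternatives were other limits on cells, clustering and scaling, thinning and free RNA subtraction.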

Additional observations from a re-analysis of the deposited data

Results flagged for a closer look

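For 3 members the ratio of FMT_young over FMT_aged lay above 0 in one class and below 0 in another, each beyond its counting interval. Klf3 had 0.41 in NK-like and -0.51 in lymphoid progenitor-like cells, Klf7 had 0.38 in granulocyte-monocyte progenitor-like and -0.38 in NK-like cells, and Klf13 had 0.425 in mature B-like and -0.21 in NK-like cells. The differences between these classes were not tested.

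The barcodes over the mitochondrial limit of 10%, which the report's comparisons leave out and the alternative limit of 20% takes in only in part, also held more Klf2, Klf4 and Klf6 in FMT_young. Over 1941 and 2621 such barcodes the ratio was 0.66 for Klf2 (464 and 294 CPM), 0.77 for Klf4 (245 and 144) and 0.91 for Klf6 (469 and 249.8).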

How the results depend on the processing

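Over 13 alternatives the count of combinations at least 2-fold higher in FMT_young stayed between 24 and 32, against 28, and that in FMT_aged was 0 in each. The 28 combinations kept ratios above 0 in every alternative that gave a value. Of 1137 single ratios recomputed, 1025 stayed within their counting interval, 112 moved beyond it and 0 called ratios changed sign. The ratios of Klf2 and Klf6 in stem-like cells are not in this count. Each moved beyond its interval in the alternatives given for it below. In stem-like cells the ratio of Klf2 was 2.98 with a mitochondrial limit of 5%, 2.86 with at least 2000 UMIs, 2.89 without doublet removal, 2.73 at a clustering resolution of 2.0, 2.86 with TMM scaling, 2.65 in thinned cells and 2.90 with free RNA subtracted. That of Klf6 was 1.78 at the 5% limit, 1.67 without doublet removal, 1.51 at resolution 2.0, 1.53 with the family, SP and immediate early genes left out of clustering, 1.67 with TMM scaling and 1.65 in thinned cells. With each library clustered on its own, chosen after seeing the data, Klf2 was 2.10 and Klf6 0.77, and 191 genes passed 2-fold in that class, against 101. With no minimum of UMIs 1812 genes did, since more genes of few UMIs are then counted. The class with the highest level was the same for Klf3, Klf7, Klf10 and Klf13 throughout. For Klf6 it was neutrophil-like with at least 2000 UMIs and stem-like in thinned cells and in means over cells. For Klf2 it was pro-B and pre-B-like at a mitochondrial limit of 20%. For Klf4 a class named macrophage-like led at the 5% limit and with separate clustering. That class need not hold the macrophage-like cells of the main clustering. Klf2 and Klf6 were higher in FMT_young in every class of each alternative, whereas the lowest Klf4 ratio was -0.03 at the 5% limit, -0.33 without doublet removal and -0.13 with separate clustering, below 0 in 1 class each. For the other moves the cause was not tested. Leaving out a replicate was not possible with 1 library per group, and no paired analysis was possible because each group was 1 library. Depth limits Klf10, Klf3 and Klf7 most, and Klf4 in the neutrophil classes.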

Other observations

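Clusters outside the 14 classes gave values for the members as well. Eosinophil-like cells (44 and 57) had 712 and 112 CPM of Klf2 (2.66), 729.6 and 281 of Klf6 (1.38) and 133 and 26.4 of Klf4 (2.33). Macrophage-like cells (104 and 29) had 1031 and 569 of Klf2 (0.86) and 416 and 183 of Klf6 (1.18). Klf4 was 480.3 and 540.1 CPM there (-0.17), with an interval of -0.59 to 0.27 that includes 0. It was the only value below 0 among these 3 members in a named class of the main clustering, and gives no direction.

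An unnamed cluster of 64 and 41 cells, led by Gngt2, Ear2 and Ace, had 1808 and 1420.3 CPM of Klf4 (0.35), above the level in monocyte-like cells in each library. The other 4 unnamed clusters had Klf2 ratios of 2.08, 1.77, 2.13 and 1.33, and one of them, led by stefin genes, held 605 FMT_young and 93 FMT_aged cells.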
